A study of Mus musculus with 6 samples.

Results

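Voltage-gated potassium channels of the Kv1 family and the proteins that hold them at the juxtaparanode, the stretch of axon under the myelin that flanks each node of Ranvier, were examined in mouse dorsal root ganglia, which hold the cell bodies of the sensory neurons of limbs and trunk. The group consists of 8 genes of 36528 listed: the alpha subunit genes Kcna1, Kcna2, Kcna4 and Kcna6, the beta subunit genes Kcnab1 and Kcnab2, the adhesion molecule gene Cntnap2 and the receptor gene Adam22. They were named by function and matched to the count tables by NCBI gene identifier. All 8 were found, and all 8 were among the 22043 genes that passed the filter on low counts.

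Adult female mice aged 12 to 18 weeks were compared in 2 groups. The CreER-positive mice (n = 3) were homozygous for a loxP-flanked Scn9a gene and carried the transgene labelled pCAAG.Cre.ER, an inducible Cre recombinase, so they are the knockout mice of the series. The control mice (n = 3) were littermates with the same homozygous floxed Scn9a and without the transgene. Scn9a encodes the sodium channel Nav1.7, and the series is titled as a global knockout, so all cells of the ganglion can be affected and not the sensory neurons alone. Each library came from the 6 lumbar ganglia at levels L4 to L6 of 1 mouse. When and how recombination was induced is not given in the sources used here, and a transgene effect cannot be told apart from an effect of the deletion, since no mouse carried CreER without floxed Scn9a.

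Kv1 channels are tetramers of alpha subunits that open near the resting potential and oppose firing. Beta subunits bind inside the cell, help to carry the channels to the axon and can speed their closing. In myelinated sensory axons, Kv1.1 and Kv1.2 (Kcna1 and Kcna2) gather at the juxtaparanode with Caspr2 (Cntnap2), its partner contactin-2, and a scaffold that includes PSD-95 relatives and ADAM22. Kv1.4 (Kcna4) is best known in this tissue from rat, where it is found mainly in small-diameter neurons.

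The 4 alpha subunit genes are close relatives, each with its whole coding region in 1 exon, and all 4 code for the same selectivity filter motif in the pore. The stretch that codes for the selectivity filter is shown because it bears on how well reads separate the 4 genes. The sequences are from GENCODE M21 transcripts (GRCm38) and lie at chr6:126642189-126642278 on the minus strand for Kcna1, chr3:107105188-107105277 on the plus strand for Kcna2, chr2:107296459-107296548 on the plus strand for Kcna4 and chr6:126738608-126738697 on the minus strand for Kcna6. Capitals mark the 18 bases that code for the filter motif, and each run is 90 bases, given 5′ to 3′ on the coding strand.
Kcna1: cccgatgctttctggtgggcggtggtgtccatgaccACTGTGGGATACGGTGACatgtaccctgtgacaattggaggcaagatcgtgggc
Kcna2: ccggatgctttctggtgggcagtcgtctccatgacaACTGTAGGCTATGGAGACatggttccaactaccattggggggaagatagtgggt
Kcna4: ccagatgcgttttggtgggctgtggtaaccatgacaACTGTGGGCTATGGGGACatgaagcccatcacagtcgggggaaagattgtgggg
Kcna6: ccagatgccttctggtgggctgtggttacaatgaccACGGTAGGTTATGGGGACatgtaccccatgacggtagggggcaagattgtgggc
Over these 90 bases the pairs of genes were 74.4% to 83.3% identical, with Kcna4 and Kcna6 the most alike. Over the aligned part of the whole coding regions they were 71.6% to 74.5% identical. The longest run of identical coding bases was 31, between Kcna1 and Kcna6, and 17 to 27 in the other pairs. The filter codons spell the same amino acids in the 4 genes with codons that differ in part, as the capitals show, while the last codon, GAC, is the same in all 4.

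Of the 8 genes, 0 differed between CreER-positive and control ganglia at an adjusted p under 0.05 (edgeR quasi-likelihood fit, Benjamini-Hochberg), against 0.726% of all 22043 tested genes, 0.163% higher and 0.563% lower. At an unadjusted p under 0.05 there were also 0, against 10.6% of tested genes. DESeq2 called 0 (2.31% of the genes it gave an adjusted p), with 2 at an unadjusted p under 0.05 (9.71%), Kcnab2 and Cntnap2, and limma-voom called 0 (0.721%) and had 0 at an unadjusted p under 0.05 (10.2%). The estimates were positive for 4 genes and negative for 4, with a median log2 fold change of 0.01, against 0.00 over all tested genes. The 95% interval of all 8 lay inside a fold of 1.5 in either direction. In whole ganglia, fewer cells of a type and less RNA per cell cannot be told apart.

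**Figure D1:**
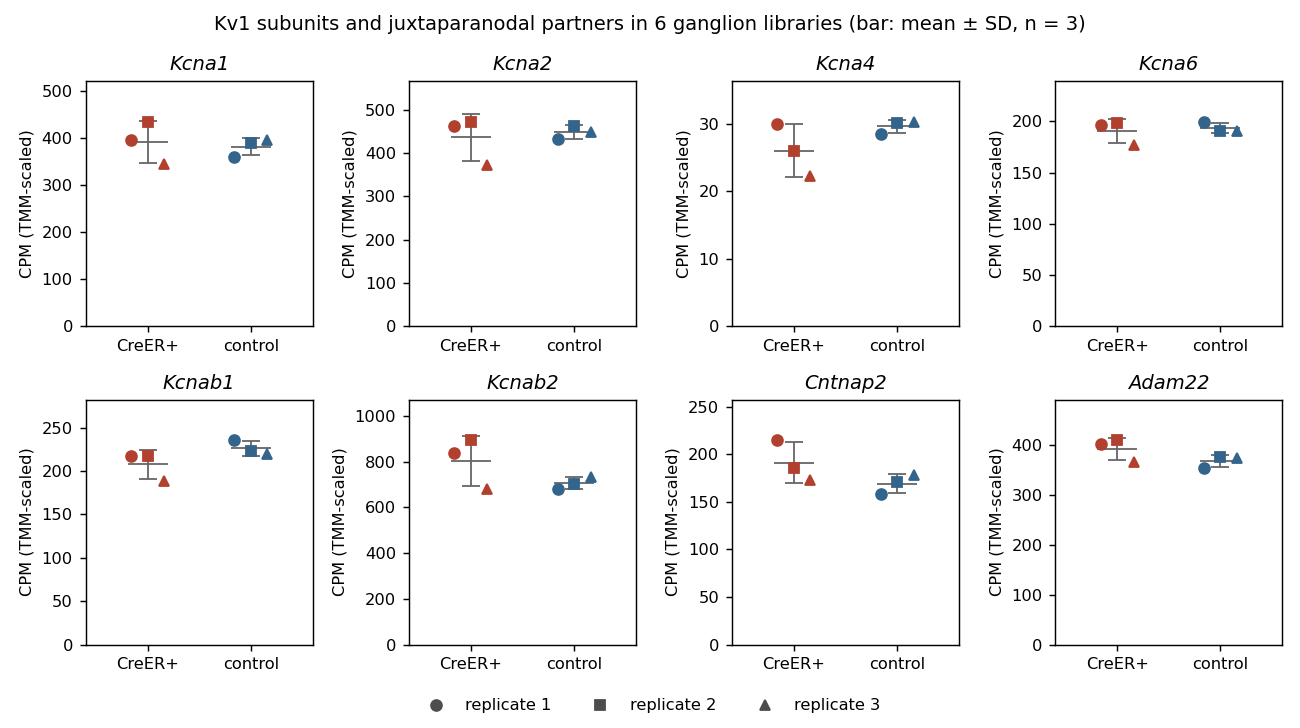
TMM-scaled CPM (y axes start at 0) of the 8 genes in each CreER-positive (left, red) and control (right, blue) library, with the mean ± SD (n = 3). Replicate 3 of the CreER-positive mice (triangle) is the lowest of the 6 libraries for 6 of the genes, and the groups overlap for every gene but Kcnab1.

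Among the alpha subunits, Kcna2 (NCBI gene 16490, chromosome 3, 107090883 to 107115005, GRCm38, as are all positions given), which encodes Kv1.2, was the most counted. It had 464, 473 and 374 CPM (counts relative to the TMM-scaled library total) in the CreER-positive libraries 1 to 3, against 432, 463 and 450 CPM in control libraries 1 to 3. The CreER-positive mice held both the highest and the lowest value, so the groups overlapped fully. The means were 437 ± 54.8 CPM in CreER-positive and 448 ± 15.8 CPM in control ganglia (SD, n = 3 each), a log2 fold change of -0.04 ± 0.09 (SE) with a 95% interval from -0.25 to 0.17 and an edgeR adjusted p of 0.928.

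Kcna1 (NCBI gene 16485, chromosome 6, 126636463 to 126645801) encodes Kv1.1, the usual partner of Kv1.2 in sensory axons and the subunit mutated in human episodic ataxia with myokymia. It had 396, 434 and 345 CPM in CreER-positive libraries, against 360, 389 and 395 CPM in control libraries. The order of the libraries was much as for Kcna2, with CreER-positive replicate 2 highest and replicate 3 lowest. The log2 fold change was 0.04 ± 0.09 (SE), with an interval from -0.16 to 0.24 and an edgeR adjusted p of 0.926.

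Kcna6 (NCBI gene 16494, chromosome 6, 126708328 to 126740834), which encodes Kv1.6, varied least relative to its mean. It had 197, 199 and 177 CPM in CreER-positive libraries, against 199.6, 190.4 and 191 CPM in control libraries, a log2 fold change of -0.02 ± 0.06 (SE) with an interval from -0.16 to 0.12 (edgeR adjusted p 0.942). The values of 5 libraries lay between 190.4 and 199.6 CPM, and CreER-positive replicate 3 stood below them. A predicted gene, Gm33581, overlaps Kcna6 and had 1.27% to 1.61% of its count.

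Kcna4 (NCBI gene 16492, chromosome 2, 107290589 to 107326804) encodes Kv1.4, the rapidly inactivating member of the family, and was the least counted alpha subunit of the 4, with 1159 to 1916 reads per library. It had 30.0, 25.9 and 22.2 CPM in CreER-positive libraries, against 28.5, 30.1 and 30.3 CPM in control libraries. The controls were tightly grouped, while 2 of the 3 CreER-positive libraries lay below all of them and replicate 1 lay within their range. The log2 fold change was -0.19 ± 0.10 (SE), with an interval from -0.41 to 0.03, and it was not called (edgeR adjusted p 0.564). Leaving out CreER-positive replicate 3 brought the estimate to -0.08 (edgeR adjusted p 0.572), and leaving out replicate 1 brought it to -0.30 (0.291). Markers of small-diameter neurons were compared as well. The 15 nociceptor and C-fibre mechanoreceptor markers averaged log2 differences of -0.18, -0.28 and -0.35 in the CreER-positive libraries. In controls they averaged 0.03, -0.02 and -0.01, all set against the control mean. The list was mixed, with 6 positive and 9 negative estimates. Of its called genes, Trpa1, an irritant receptor gene, was higher (log2 fold change 0.36, edgeR adjusted p 0.0178), and the 6 that fell were led by Slc17a8 (-1.38, 0.00337) and Mrgprd (-1.22, 0.000249), markers of C-fibre mechanoreceptors and of non-peptidergic nociceptors. In CreER-positive replicate 1 the list stood at -0.18 and Kcna4 at 0.02. That list mean rested largely on Mrgprd (-1.12), Slc17a8 (-1.08) and the kinase gene Prkcq (-0.67). Other genes of the list, such as Trpa1 (0.41) and Tac1 (0.39), stood above the control mean in that library. The part of these cells in the Kcna4 values was not tested.

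These 4 genes made up 99.7% to 99.8% of the reads of the 8 Kv1 alpha genes in every library. Of the others, Kcna3, Kcna5 and Kcna10 averaged about 1 CPM or less, and Kcna7 did not pass the filter. Kcna3, a channel best known from T lymphocytes, averaged 0.580 ± 0.104 CPM in CreER-positive and 0.947 ± 0.259 CPM in control ganglia (SD, n = 3 each). Its groups did not overlap, but it was not called (log2 fold change -0.71, edgeR adjusted p 0.335). Of the 4 tested genes in this list, which holds the remaining beta subunit gene Kcnab3 as well, 0 were called by edgeR, DESeq2 or limma-voom, and 1, Kcna3, had an unadjusted edgeR p under 0.05.

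Kcnab2 (NCBI gene 16498, chromosome 4, 152390744 to 152477549), the beta subunit Kvβ2 that accompanies Kv1 channels to the axon, had the highest count of the 8 genes and the largest positive estimate. It had 836, 893 and 679 CPM in CreER-positive libraries, against 680.3, 704 and 735 CPM in control libraries. Replicates 1 and 2 of the CreER-positive mice lay above every control, and replicate 3 lay just below the lowest control. The means were 803 ± 111 CPM in CreER-positive and 706 ± 27.5 CPM in control ganglia (SD, n = 3 each), a log2 fold change of 0.18 ± 0.10 (SE) with an interval from -0.05 to 0.42. It was not called (edgeR adjusted p 0.602). Without CreER-positive replicate 2 the estimate was 0.10 (edgeR adjusted p 0.882). Without CreER-positive replicate 3 it was called higher, at a log2 fold change of 0.29 and an edgeR adjusted p of 0.0308, in a fit that called 2.53% of tested genes in either direction and 1.48% as higher. When control replicate 2 was left out as well, the estimate was 0.29 and the call was lost (edgeR adjusted p 0.137), in a fit that called 0.487% of tested genes. Nphp4 overlaps the start of Kcnab2 on the other strand and had 1.61% to 2.21% of its count.

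Kcnab1 (NCBI gene 16497, chromosome 3, 64949212 to 65378225), the beta subunit Kvβ1, whose N-terminus can plug the channel pore, was the 1 gene of the 8 whose groups did not overlap, against 15.9% of tested genes. It had 218, 217 and 188 CPM in CreER-positive libraries, against 235, 223 and 219.6 CPM in control libraries. The gap between the groups, with 218 CPM in the highest CreER-positive library and 219.6 CPM in the lowest control, was far smaller than the spread within either. The log2 fold change was -0.12 ± 0.07 (SE), with an interval from -0.28 to 0.03 (edgeR adjusted p 0.609). An annotated antisense gene, A330015K06Rik, lies within Kcnab1 and had 23.9% to 24.9% of its count, with a log2 fold change of -0.11 (edgeR adjusted p 0.654). Since no strand setting is known, reads from the pair cannot be told apart.

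Cntnap2 (NCBI gene 66797, chromosome 6, 45060061 to 47301393) encodes Caspr2, the neurexin-related adhesion molecule on the axon without which Kv1 channels do not gather at juxtaparanodes in mouse. It had 214, 186 and 172 CPM in CreER-positive libraries, against 158, 170.4 and 179 CPM in control libraries. Replicates 1 and 2 of the CreER-positive mice lay above all controls, and replicate 3 lay within their range. The log2 fold change was 0.17 ± 0.08 (SE), with an interval from -0.02 to 0.36 and the smallest unadjusted edgeR p of the 8 genes (0.0674, adjusted 0.525). The estimate was 0.09 without CreER-positive replicate 1, the library with the highest value.

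Adam22 (NCBI gene 11496, chromosome 5, 8072347 to 8368312) encodes a catalytically inactive relative of the ADAM proteases that binds secreted LGI proteins outside the cell and PSD-95 scaffolds inside. It had 402, 410.3 and 367 CPM in CreER-positive libraries, against 356, 377 and 375 CPM in control libraries. As for Kcnab2 and Cntnap2, replicates 1 and 2 of the CreER-positive mice lay above the controls and replicate 3 did not. The log2 fold change was 0.09 ± 0.07 (SE), with an interval from -0.06 to 0.24 (edgeR adjusted p 0.705).

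Levels can be set between genes only per length, and here the length matters. The deposited RPKM divides by a gene width that, for all members but Kcna4, is close to the full span with introns. It is 9339 bases for Kcna1 and 2241328 bases for Cntnap2, whose longest coding transcript in GENCODE M21 has 9827. For Kcna4 it is 8292 bases of a span of 36216, so its RPKM rests on a different kind of width. By RPKM the order was Kcna1 (means 42.3 in CreER-positive and 41.8 in control ganglia), Kcna2 (18.2 and 19.0), Kcnab2 (9.29 and 8.30), Kcna6 (5.92 and 6.10), Kcna4 (3.17 and 3.66), Adam22 (1.34 and 1.28), Kcnab1 (0.488 and 0.539) and Cntnap2 (0.0859 and 0.0772). The ranges of neighbouring genes over the 6 libraries did not overlap. Divided instead by the longest coding transcript, the CPM per kilobase put Kcnab2 first (205 in CreER-positive and 180 in control ganglia), then Kcna1 (97.1 and 94.6) and Kcnab1 (64.0 and 69.6), with Cntnap2 (19.4 and 17.2) and Kcna4 (5.44 and 6.18) last. Adam22 (42.5 and 39.9), Kcna2 (37.7 and 38.7) and Kcna6 (32.7 and 33.2) lay between, and there the ranges of Adam22 and Kcna2, and of Kcna2 and Kcna6, overlapped. By mean the alpha subunits kept 1 order with both lengths, Kcna1, Kcna2, Kcna6 and Kcna4, and Kcnab2 lay above Kcnab1 in both. The places of the beta subunits, Adam22 and Cntnap2 among the alpha subunits changed with the length used. Intronic reads appear to be counted, so dividing by the transcript can overstate genes with long introns. The width was 228 times the longest coding transcript for Cntnap2, 132 for Kcnab1, 32.0 for Adam22 and 22.2 for Kcnab2. It was 2.32 times for Kcna1 and 2.09 for Kcna2.

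The other genes of the juxtaparanode, its scaffold and the LGI-ADAM pairs held the single called gene among 40 tested genes of 4 lists. The lists cover these genes, the other Kv1 family genes, the paranode, and the node and axon initial segment. Over all tested genes 0.726% were called. Lgi1 encodes a secreted ligand of ADAM22 and ADAM23 and is located on chromosome 19 (38264687 to 38308939, GRCm38). It fell to 60.0, 55.0 and 53.3 CPM in CreER-positive libraries, against 77.8, 76.2 and 73.6 CPM in control libraries, and the groups did not overlap. The means were 56.1 ± 3.48 CPM in CreER-positive and 75.9 ± 2.11 CPM in control ganglia (SD, n = 3 each), a log2 fold change of -0.43 ± 0.06 (SE) with an edgeR adjusted p of 0.00994. Over 18 alternative settings the estimate ranged from -0.48 to -0.40 and the adjusted p from 7.09e-07 (DESeq2) to 0.235. The call was lost without control replicate 1, 2 or 3 (edgeR adjusted p 0.0724, 0.0788 and 0.0539), without both control replicate 2 and CreER-positive replicate 3 (0.0522), and with the libraries scaled to A-fibre neuron markers (0.235). Gm32771 overlaps the start of Lgi1, had 16.5% to 19.3% of its count and a log2 fold change of -0.47 (edgeR adjusted p 0.0560), so the 2 genes may share reads.

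Of the 14 genes in that list, 1 was lower and 0 higher, and the median log2 fold change was 0.01. Cntn2, the glial and axonal partner of Caspr2 (199 ± 21.9 CPM in CreER-positive and 197 ± 7.72 CPM in control ganglia, SD, n = 3 each), had a log2 fold change of 0.01. The other LGI and neuronal ADAM genes had estimates of -0.03 (Lgi2), 0.23 (Lgi3), -0.10 (Lgi4), -0.12 (Adam11) and 0.07 (Adam23), with edgeR adjusted p values from 0.590 to 0.972. Cntnap4, a Caspr relative, had 0.22 (edgeR adjusted p 0.426) and was the other gene of the list with an unadjusted p under 0.05. The scaffold gene Dlg4, which encodes PSD-95, had 0.11, and Epb41l3, which encodes the protein 4.1B that links Caspr2 to the cytoskeleton, had 0.00.

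At the paranode, the axon-glia junction beside the juxtaparanode, 0 of 9 genes were called by edgeR, DESeq2 or limma-voom, and 1 had an unadjusted edgeR p under 0.05. This was Cntnap1, which encodes Caspr, with a log2 fold change of 0.24 (edgeR adjusted p 0.444). Leaving out CreER-positive replicate 3 made it a higher call (0.35, edgeR adjusted p 0.0455), as did 1 surrogate variable (0.23, 0.0344), and the other 16 alternatives gave an adjusted p of 0.141 to 0.882. At the node and axon initial segment 0 of 13 genes were called by the 3 tools, and 2 had an unadjusted edgeR p under 0.05. These were the background potassium channel gene Kcnk2 (0.15, edgeR adjusted p 0.320) and the Kv7.3 gene Kcnq3 (0.30, 0.381). The median log2 fold changes of the paranodal and nodal lists were -0.02 and 0.07.

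**Figure D2:**
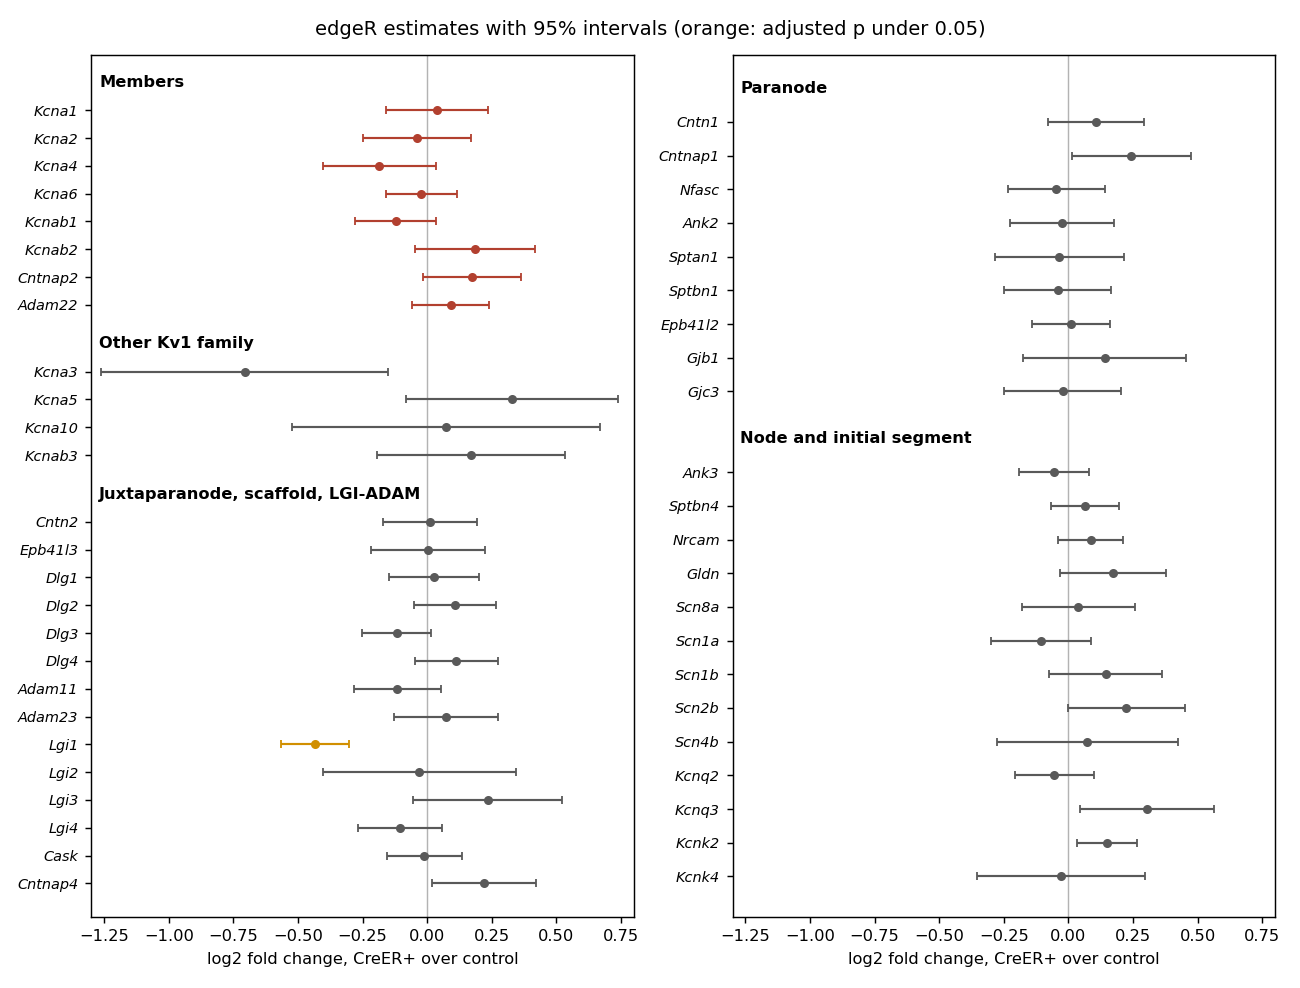
Log2 fold changes of CreER-positive over control ganglia (x axis) with 95% intervals from edgeR for the 8 genes (red) and the other genes of the Kv1 family, juxtaparanode, paranode and node (grey; orange for an adjusted p under 0.05). Every interval of the 8 genes includes 0, and Lgi1, at -0.43, is the single called gene.

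Replicate 3 of the CreER-positive mice held the lowest value of the 6 libraries for 6 of the 8 genes, all but Cntnap2 and Adam22. Over all tested genes it was the lowest library for 22.9%, and for 36.7% of the 7655 genes at or above the mean level of Kcna4. Set against the control mean, the 8 genes averaged log2 differences of 0.10, 0.08 and -0.16 in CreER-positive libraries 1 to 3, against -0.04, 0.01 and 0.02 in the controls. The same library was lowest for 9 of 13 genes listed as markers of large-diameter A-fibre neurons, the cells with heavily myelinated axons. How specific the listed genes, Ret among them, are to these cells was not tested. The list mean in that library was -0.18, against 0.05 and 0.14 in CreER-positive replicates 1 and 2 and -0.08 to 0.07 in controls. The mean of 10 pan-neuronal markers there was -0.11, against -0.04 to 0.04 in controls. Markers of macrophages and immune cells (0.68) and of vessels and fibroblasts (0.42) were higher in it than in any other library. Red blood cell markers stood at 1.11, with a summed level of 82.5 CPM, against 32.4 to 42.9 CPM in the other libraries. Without this library, the estimates of Kcna2 and Kcna6 became positive (0.06 and 0.03), and those of Kcna4 and Kcnab1 stayed negative (-0.08 and -0.06).

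**Figure D3:**
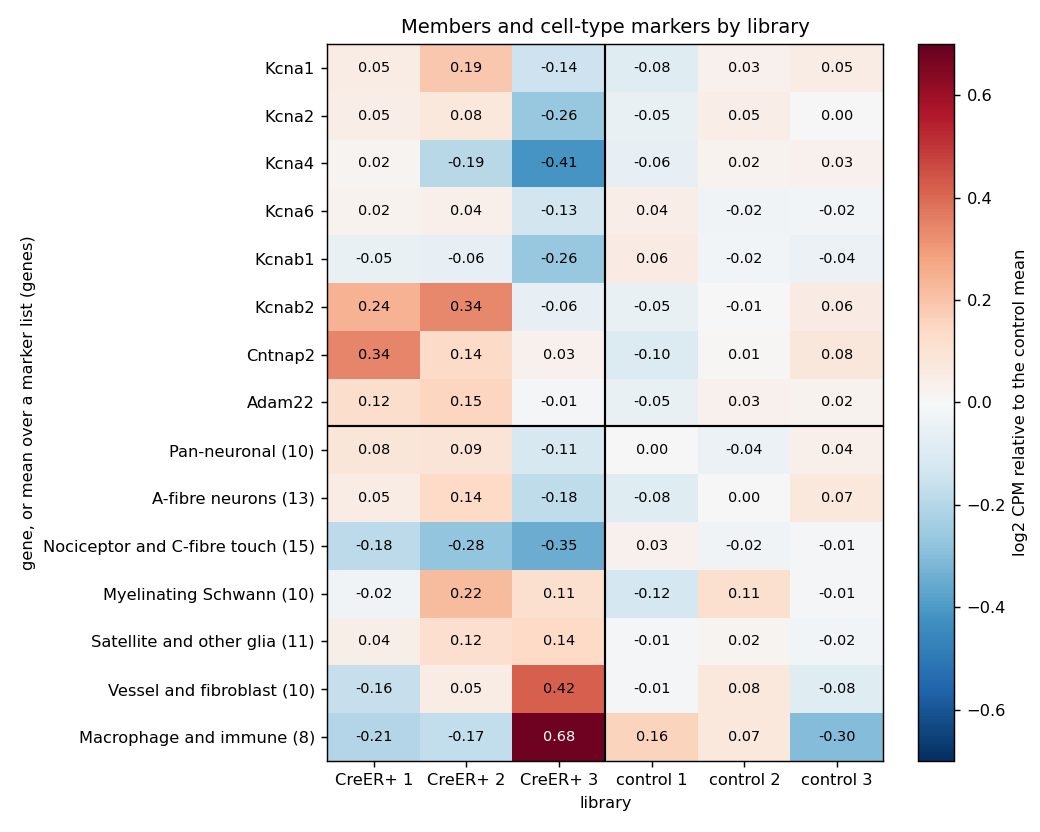
Log2 CPM relative to the control mean for the 8 genes (upper rows) and the mean over cell-type marker lists (lower rows, number of genes in brackets), with the CreER-positive libraries left of the controls. CreER-positive replicate 3 is lowest for 6 of the 8 genes, and there the A-fibre list is at -0.18 and the macrophage list at 0.68.

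Scaling the libraries to neuronal content, an alternative chosen after the data were seen, called 0 of the 8 genes. Of all 22043 tested genes, 120 were called with the pan-neuronal scale and 47 with the A-fibre scale. With the geometric mean of the pan-neuronal markers as the scale, the estimates ranged from -0.21 for Kcna4 to 0.16 for Kcnab2. With the A-fibre markers they ranged from -0.20 for Kcna4 to 0.17 for Kcnab2. The wrap of myelin was also compared: of 10 myelinating Schwann cell markers 0 were called by edgeR, DESeq2 or limma-voom and 2 had an unadjusted edgeR p under 0.05, among them the transcription factor gene Egr2 (log2 fold change 0.32, edgeR adjusted p 0.435). The summed level of these markers was 3478 to 4262 CPM in CreER-positive and 3459 to 3872 CPM in control ganglia.

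**Figure D4:**
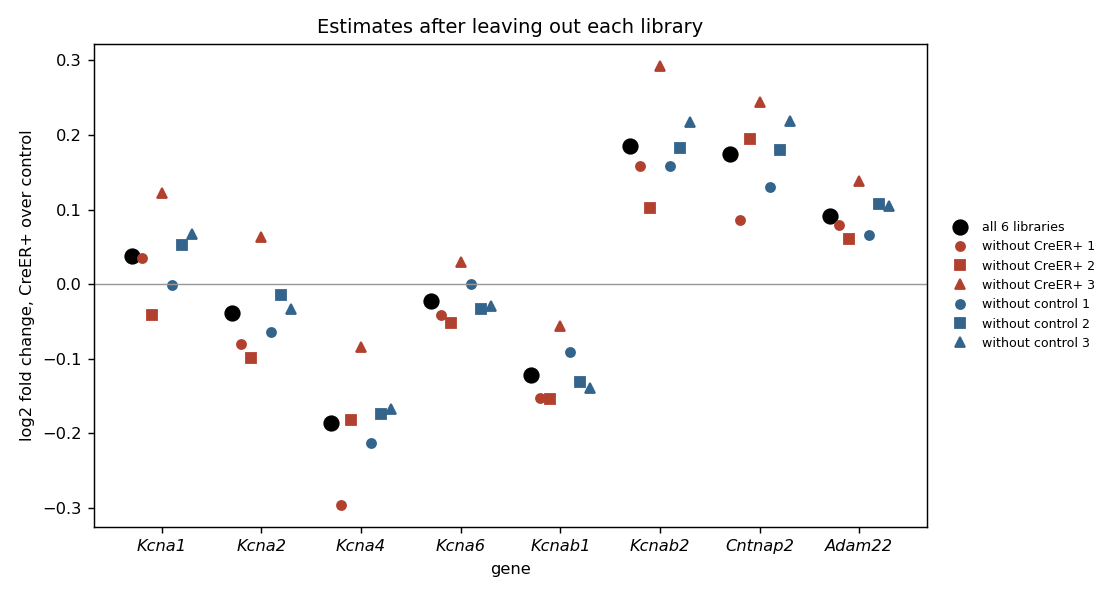
Log2 fold change of CreER-positive over control ganglia (y axis) for each gene with all 6 libraries (black) and after leaving out each library in turn (red: a CreER-positive library; blue: a control). Kcnab2, Cntnap2 and Adam22 stay above 0 and Kcna4 and Kcnab1 below 0, while Kcna1, Kcna2 and Kcna6 cross 0.

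The 8 genes did not move as 1 unit across libraries. As a description over 6 libraries, which share scaling and the low replicate 3, Pearson correlations of log2(CPM + 1) between pairs ran from -0.14 (Kcnab1 with Cntnap2) to 0.96 (Kcnab2 with Adam22). That of Kcna1 with Kcna2 was 0.86, and that of Kcna6 with Kcnab1 0.88. Among 11196 tested genes that averaged 10 CPM or more, the most alike by this measure were Kif1a for Kcna1, Dnajc16 for Kcna2, Glce for Kcna4, Efcab2 for Kcna6, Pafah1b1 for Kcnab1, Got2 for Kcnab2 and Epn2 for Adam22, at 0.983 to 0.999. With 6 libraries such values are common: 15 (Cntnap2) to 514 (Kcnab2) genes reached 0.95.

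The libraries held 52309273 to 62625441 counts in CreER-positive and 40237131 to 63332040 in control mice. The targeted gene Scn9a had 619.8, 565 and 574 CPM in CreER-positive libraries, against 635, 611 and 557 CPM in controls (log2 fold change -0.04, edgeR adjusted p 0.918). Which exons are floxed is not given in the sources used here, and a single count per gene does not separate them, so this value does not check the genotype labels. Defining markers of ganglia were present in all 6 libraries, with a summed level of the 10 pan-neuronal markers of 7476 to 8903 CPM in CreER-positive and 7453 to 8219 CPM in control mice. Of 15 nociceptor and C-fibre mechanoreceptor markers, 6 were lower and 1 higher, against 0.563% and 0.163% of all tested genes. The list was chosen with earlier results of these data known, so these counts describe it and do not test it. Skeletal muscle markers summed to 51.7 CPM in control replicate 2, against 5.82 to 8.87 CPM in the other libraries. Without that library the members called were still 0, in a fit that called 60 of 22452 tested genes.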

How the data were processed

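The members and gene lists were chosen with earlier results of these data known, and the lists hold genes named by function. GSNAP and the builds GRCm38 and mm10 are named per the submitters' processing notes. How reads were counted, with which annotation and strand, is not given in the sources used here. The deposited count is a whole number per NCBI gene, per the file headers, beside a gene width and an RPKM value that the authors computed from count, width and a library total. The width is within 5% of the full gene span for 77.7% of genes with a position in GRCm38.p6, so intronic reads appear to be counted. Counts summed to 1.46% to 2.17% above the library total behind the RPKM, so some reads may count for several genes. For Kcna4 the width is 8292 bases, against a span of 36216 in GRCm38.p6.

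Genes were filtered with filterByExpr (edgeR 4.0.16), which left 22043, libraries were scaled with TMM factors, and groups were compared with edgeR's quasi-likelihood test (R 4.3.3), adjusted over all tested genes. The SE is the log2 fold change divided by the square root of F. The 6 animals carry no batch or pairing in the labels. Named were the 8 members, of each list every called gene and the 2 to 4 with the smallest unadjusted p, and for each member the gene with the highest Pearson correlation of log2(CPM + 1) among tested genes of at least 10 CPM. The other genes named were chosen after their values were seen. Not every gene under this rule is reported here. Pairs of libraries within a group were compared by chi-square per degree of freedom over genes. The values were 5.64 to 8.40 for control pairs and 32.8 to 40.7 for CreER-positive pairs, so none is a copy of another. The CreER-positive libraries thus differed more among themselves than the controls did. The pair of CreER-positive replicates 1 and 2 stood at 32.8, so by this measure the difference was not limited to pairs with replicate 3. The number of genes called did depend most on that library. It was 568 without CreER-positive replicate 3, against 139 without replicate 1, 143 without replicate 2 and 160 with all libraries. Alternatives were other scalings and count filters, DESeq2 1.42.0, limma-voom (limma 3.58.1), 1 surrogate variable (sva 3.50.0) and leaving out libraries. Legacy quasi-likelihood settings and the 2 scalings to neuronal markers were added after seeing the data. Steps were tested on simulated data, sequences were aligned with Biopython 1.88, and figures were drawn with matplotlib 3.10.9.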

Additional observations from a re-analysis of the deposited data

How the results depend on the processing

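The count of 0 called members held in all 18 alternatives except without CreER-positive replicate 3, so leaving out 1 library gave 0 to 1, the 1 being Kcnab2. Of 144 values of the 8 members' log2 fold changes under alternatives, 136 kept their direction and their side of the threshold. Kcna1 turned negative without CreER-positive replicate 2 or control replicate 1 (-0.0013), with a range of -0.042 to 0.12 over libraries left out. Kcna2 turned positive without CreER-positive replicate 3 (range -0.099 to 0.063), and at 0.087 without both it and control replicate 2. Kcna6 did so in the same settings (range -0.052 to 0.030; 0.018 without both) and without control replicate 1 (0.00057). Scn9a turned positive without control replicate 1 (range -0.086 to 0.0049). Among markers, C1qb (range -0.088 to 0.45; -0.074 without both) and Hba-a2 (range -0.037 to 0.67; -0.037 without both) turned negative without CreER-positive replicate 3, and Myh4 turned positive without control replicate 2 (range -3.28 to 0.39; 0.21 without both).

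Of all tested genes, 160 were called (36 higher, 124 lower). DESeq2 called 430 (160 higher, 270 lower), 1 surrogate variable gave 737 (348 higher, 389 lower), scaling to A-fibre markers 47 (7 higher, 40 lower), and leaving out 1 library 60 to 568. In the main fit 0.726% of all tested genes were called, and 9 of the 40 pathway and 88 marker genes tested. This count was 21 with 1 surrogate variable, 4 with scaling to A-fibre markers, 4 without control replicate 2 and CreER-positive replicate 3, and 3 to 16 after leaving out 1 library. The cause of these shifts was not tested. No paired analysis was possible because the replicate numbers used here follow accession order and only name the libraries, and the labels give no pairing. With 3 libraries a group, differences within the 95% intervals given were not detectable. The intervals are not adjusted for the number of genes, while a call needed an adjusted p under 0.05. Differences beyond the ends of the intervals could therefore also go uncalled.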

Other observations

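The 2 beta subunits were also set against each other within each library, a comparison chosen after their values were seen. The ratio of Kcnab2 to Kcnab1 counts does not depend on library scaling. It was 3.84, 4.12 and 3.61 in CreER-positive libraries, against 2.89, 3.16 and 3.35 in control libraries, so the groups did not overlap, and CreER-positive replicate 3 was the lowest of its group. The means were 3.85 ± 0.254 in CreER-positive and 3.13 ± 0.229 in control ganglia (SD, n = 3 each). The difference of 0.723 ranged from 0.593 to 0.847 when 1 library was left out. This pair is 1 of 28 among the members. It joins the member with the largest positive estimate to the 1 member whose own groups did not overlap. How often ratios of other gene pairs separate the groups was not counted. The separation is therefore a description of a pair picked for it, and the range over libraries left out does not undo that choice. Because A330015K06Rik lies within Kcnab1 on the other strand, the denominator may hold its reads. The same ratio of the alpha subunits Kcna1 and Kcna2 was 0.853, 0.918 and 0.923 in CreER-positive libraries, against 0.833, 0.839 and 0.878 in control libraries, and there the groups overlapped.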
